A study of Arabidopsis thaliana with 25 samples.

Results

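The 10 genes described here encode the minor antenna of photosystem II and the antenna of photosystem I in Arabidopsis thaliana. They were taken from a fixed list of gene identifiers and are 10 of the 53986 entries of the deposited table. The minor photosystem II antenna proteins are CP29, made by LHCB4.1 (AT5G01530), LHCB4.2 (AT3G08940) and LHCB4.3 (AT2G40100), CP26, made by LHCB5 (AT4G10340), and CP24, made by LHCB6 (AT1G15820). The photosystem I antenna genes are LHCA1 (AT3G54890), LHCA2 (AT3G61470), LHCA3 (AT1G61520), LHCA4 (AT3G47470) and LHCA5 (AT1G45474). All 10 had enough counts to be tested.

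Light-harvesting proteins are made in the cytosol from nuclear genes, imported into the plastid and folded around chlorophyll and carotenoids in the thylakoid membrane. CP29, CP26 and CP24 sit as monomers between the photosystem II core and the major trimeric antenna, and pass excitation energy inward. In photosystem I, LHCA1 pairs with LHCA4 and LHCA2 pairs with LHCA3 to form a belt on the side of the core. LHCA5 is a scarce relative that helps to attach photosystem I to the plastid NDH complex. In dark-grown seedlings plastids remain etioplasts that lack chlorophyll-bound antenna, and light starts the assembly of the photosynthetic membrane.

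The material was cotyledons dissected from wild-type seedlings after acetone fixation, and RNA was measured by paired-end, stranded sequencing. Group D grew for 5 days in the dark. Groups 1h, 6h and 24h grew the same way and then received 1, 6 or 24 h of continuous light, so that they were also older than D by that time. Group L grew for 5 days in long days. Each group held 5 libraries, which the labels call biological replicates, and all groups shared the genotype, the growth medium and the addition of Drosophila cells before extraction. Light cannot be told apart from the added age or the time of day at harvest. Whether the 5 libraries of a group came from separate plates or days is not stated, and p-values measure no more than the spread among them.

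Libraries held 17901840 to 24085995 counts, so that counting error was small beside the spread between libraries for all members. LHCB4.3 in D was the member with the fewest counts, 44 to 155 per library. Levels are given as spike-scaled CPM (counts per 1000000 of a library size set by the Drosophila counts of the same library). They follow the amount of transcript per added fly cell, and more RNA per cell, more cells and more tissue per extraction cannot be told apart in them. Scaling by the Arabidopsis genes themselves (TMM, the trimmed mean of M values) gives the change relative to other Arabidopsis transcripts instead. Replicates 1 and 2 differed from replicates 3 to 5 in the share of plastid-encoded counts, which was 0.549% to 4.095% against 3.83% to 16.0%, and results are therefore also given within each set. L replicate 3 held more Drosophila counts (0.429% of its total) than the other L libraries (0.185% to 0.253%), and its spike-scaled levels were the lowest of L for 9 of the 10 genes. D replicates 1 and 2 held 4.03% and 2.85%, against 1.21% to 1.54% in the other D libraries. The leaf polarity genes FIL, YAB3 and AS1, expected in cotyledons, summed to 86.1 to 622 CPM in every library. Relative to D, TMM called all 3 of these genes lower in 24h, all 3 in L, 2 in 6h and 0 in 1h. Their median log2 changes were -0.40 (6h), -0.74 (24h) and -1.18 (L). Of 20615 genes TMM called 5414 (6h), 5950 (24h) and 6274 (L) lower. The Drosophila scaling called 0 of the 3 lower in any group, and 2 higher in L. Whether the share of cotyledon tissue differed between groups was not tested.

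The 250 bases before each annotated gene start were searched on both strands for 5 short motifs, and 5 upstream stretches are shown because their genes define the range of responses described below. From 6 h of light on, LHCB4.3 and LHCA1 differed most from D and LHCB4.2 least, and LHCB4.1 and LHCA4 are the genes with which these were compared. The sequences are read from the RefSeq assembly TAIR10.1 in the direction of transcription, 5′ to 3′, up to the base before the gene start, and stop where a neighbouring gene is annotated. Capitals mark matches to the motifs. The stretches lie at chr5:208616-208865 (plus strand) for LHCB4.1, chr3:2717367-2717556 (plus) for LHCB4.2, chr2:16745378-16745627 (plus) for LHCB4.3, chr3:20341177-20341356 (minus) for LHCA1 and chr3:17495034-17495283 (minus) for LHCA4.
LHCB4.1: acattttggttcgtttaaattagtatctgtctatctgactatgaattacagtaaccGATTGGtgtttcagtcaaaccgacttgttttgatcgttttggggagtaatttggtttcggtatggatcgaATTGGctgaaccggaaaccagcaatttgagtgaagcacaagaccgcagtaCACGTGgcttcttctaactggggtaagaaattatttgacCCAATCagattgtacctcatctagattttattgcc
LHCB4.2: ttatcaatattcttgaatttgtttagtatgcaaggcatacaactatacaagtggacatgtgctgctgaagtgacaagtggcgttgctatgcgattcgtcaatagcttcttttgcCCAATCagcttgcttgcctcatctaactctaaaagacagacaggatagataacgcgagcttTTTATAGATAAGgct
LHCB4.3: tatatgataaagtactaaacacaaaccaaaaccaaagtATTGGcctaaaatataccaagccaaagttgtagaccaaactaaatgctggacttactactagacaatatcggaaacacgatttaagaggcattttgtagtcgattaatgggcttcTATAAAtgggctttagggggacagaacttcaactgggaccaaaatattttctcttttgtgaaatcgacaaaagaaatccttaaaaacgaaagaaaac
LHCA1: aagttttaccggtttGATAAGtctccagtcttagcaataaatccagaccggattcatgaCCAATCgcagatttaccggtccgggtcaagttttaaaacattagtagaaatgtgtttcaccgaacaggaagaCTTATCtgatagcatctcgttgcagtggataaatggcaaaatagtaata
LHCA4: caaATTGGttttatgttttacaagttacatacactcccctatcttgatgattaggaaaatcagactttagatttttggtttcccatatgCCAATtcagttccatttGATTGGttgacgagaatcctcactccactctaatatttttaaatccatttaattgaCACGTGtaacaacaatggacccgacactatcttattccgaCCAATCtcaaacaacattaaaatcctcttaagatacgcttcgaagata

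The G-box CACGTG, a core bound by HY5 and by phytochrome-interacting factors, was found upstream of LHCB4.1, LHCB6 and LHCA4. These are 3 of 10 members, and 6.49% of the 27443 gene windows of the same length held it. CCAATC, a motif reported for the GLK factors, lay upstream of 5 members (LHCB4.1, LHCB4.2, LHCA1, LHCA3 and LHCA4), against 10.2% of all windows. Every CCAATC is also a CCAAT, the shorter motif, which 8 members and 46% of all windows held. The I-box core GATAAG was found for LHCB4.2, LHCB6 and LHCA1 (12.3% of all windows). TATAAA was found for 5 members (LHCB4.2, LHCB4.3, LHCA2, LHCA3 and LHCA5), against 47.3% of all windows. LHCB4.3 held no G-box, I-box core or CCAATC in its window, and LHCA5 held only TATAAA. These are matches of letters, and binding was not measured.

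**Figure D1:**
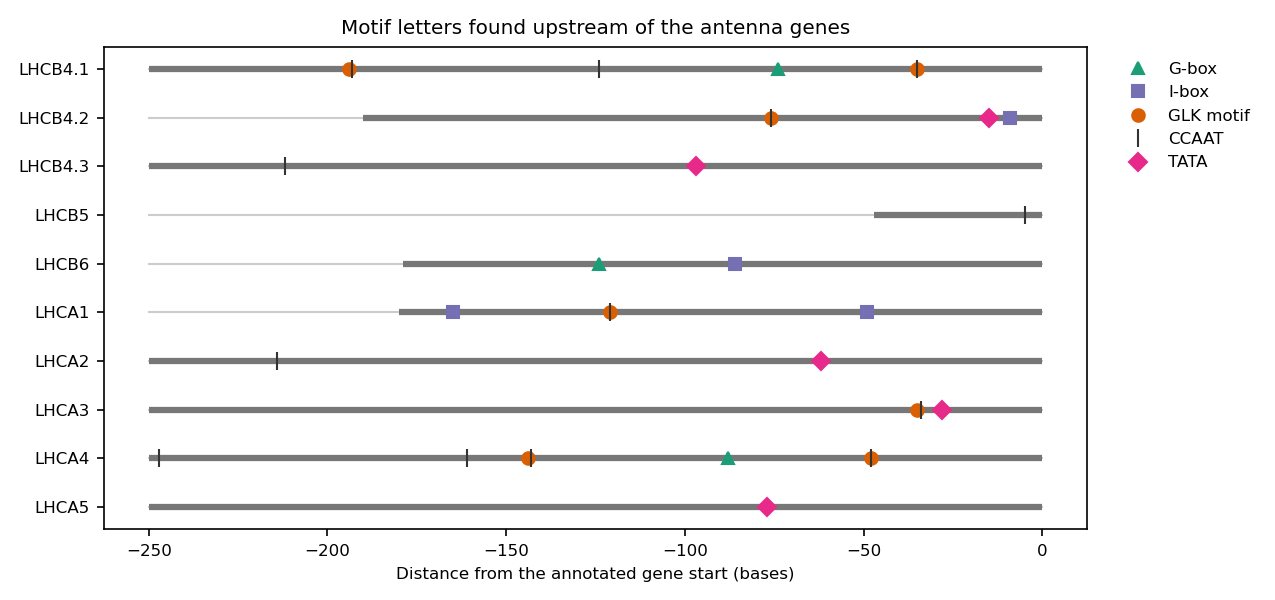
Positions of motif matches upstream of the 10 genes, in bases before the annotated gene start (x axis), with 1 line per gene. Thick lines mark stretches free of a neighbouring gene, and symbols mark the motifs. LHCB4.1 and LHCA4 carry the G-box at 74 and 88 bases before the start, each with 2 CCAATC matches.

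In the first hour of light LHCB4.3 and LHCA1 rose, and the other 8 genes did not pass the test. LHCB4.3, the CP29 isoform also known as LHCB8, had 4.12, 37.2, 9.16, 28.2 and 9.43 CPM in the 1h libraries, replicates 1 to 5, against 0.410, 1.29, 2.302, 5.47 and 4.33 CPM in D. The groups overlapped through 1h replicate 1. The log2 fold change was 2.68 ± 0.61 (SE; 6.41-fold, adjusted p = 0.00556, edgeR quasi-likelihood test with Benjamini-Hochberg adjustment over 20615 genes). LHCA1 had 251, 1229, 328, 787 and 306 CPM in 1h, against 35.1, 102, 191, 120 and 199 CPM in D. Every 1h library was above every D library, with a log2 fold change of 2.17 ± 0.54 (4.48-fold, adjusted p = 0.0116). Thus 2 of 10 members were higher and 0 were lower, where 3.06% of all genes tested were higher and 0.994% lower. No member was called lower by edgeR or DESeq2, and no member's lower value had an unadjusted p under 0.05 by edgeR with the Drosophila scaling.

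LHCA4, the partner of LHCA1, averaged 1159 ± 674 CPM in 1h and 497 ± 238 CPM in D (SD, n = 5 each). Its log2 fold change of 1.22 ± 0.49 missed the threshold over all genes (adjusted p = 0.232). LHCA5 gave 0.85 ± 0.50 (adjusted p = 0.662), and the other 6 genes lay between -0.03 (LHCA2) and 0.47 (LHCB6). The median of the members was 0.46 and that of all genes 0.03. The library 1h replicate 2 was the highest of its group for all 10 genes. It held the smallest share of Drosophila counts in 1h (1.015% of its total, against 1.31% to 3.04%). With TMM scaling it was highest only for LHCB5, LHCA1 and LHCA5. Without 1h replicate 2 the LHCA1 call was lost (1.69, adjusted p = 0.0675). Replicates 1 and 2 alone gave 4 members higher, with LHCB4.3 at 4.61 and LHCA1 at 3.44, and replicates 3 to 5 gave 0, with 1.95 and 1.48 (adjusted p = 0.0683 and 0.177). The median of all genes was 1.32 in replicates 1 and 2 and -0.58 in replicates 3 to 5. These sets called 1758 of 21151 and 251 of 20525 genes higher. With TMM scaling LHCA4 (1.12, adjusted p = 0.0108) and LHCA5 (0.82, adjusted p = 0.000869) also passed, so that 4 were higher. TMM called 1711 of 20615 genes higher, where the main fit called 630.

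**Figure D2:**
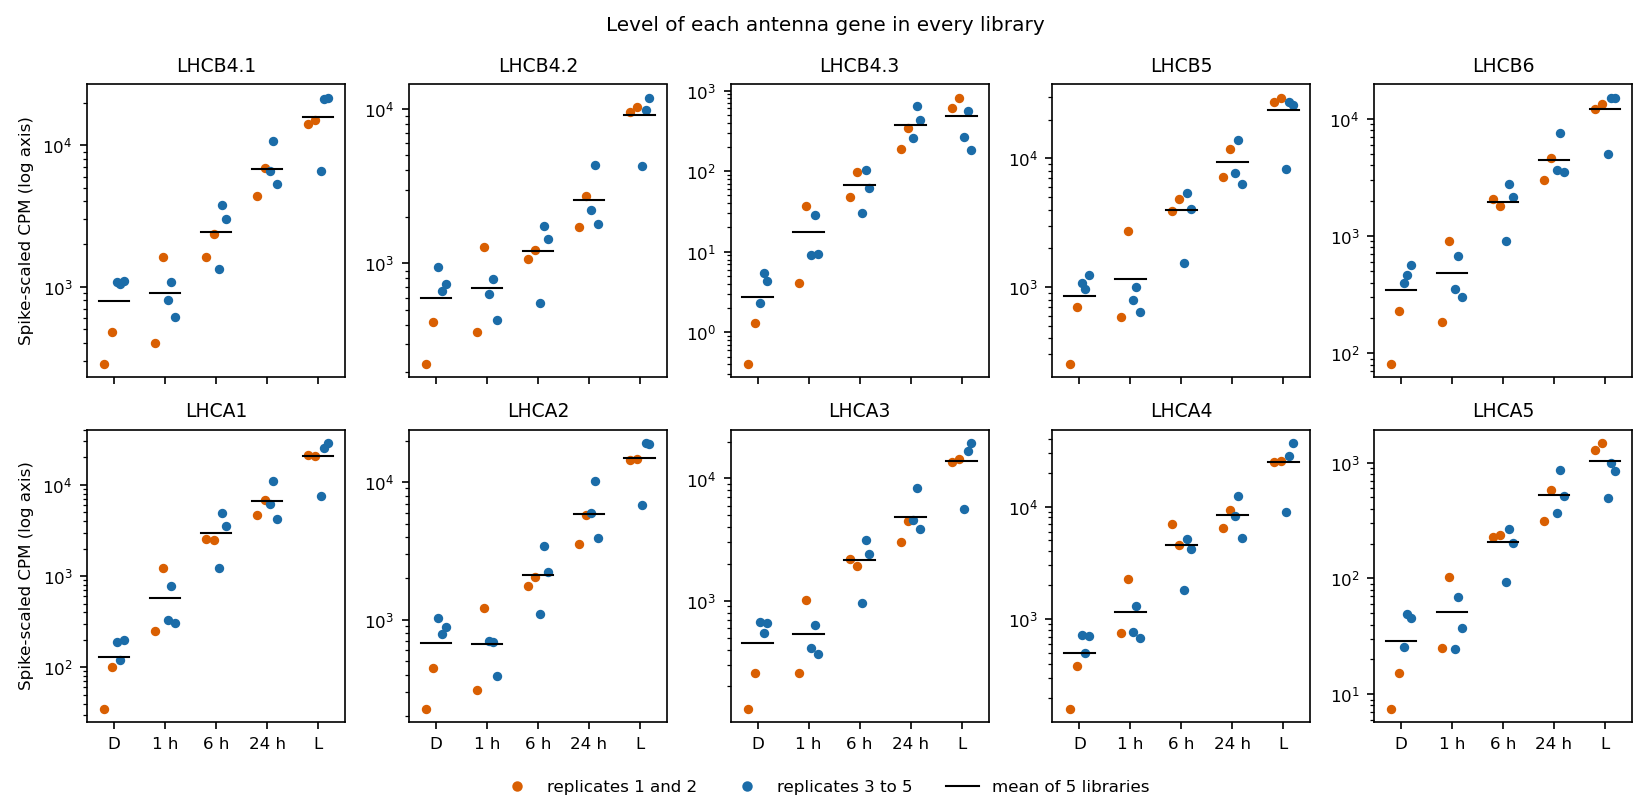
Spike-scaled CPM of each gene (y axis, log scale) in the 25 libraries, grouped as D, 1 h, 6 h, 24 h and L (x axis). Points are libraries, coloured by replicate set, and bars are means of 5 libraries. LHCB4.3 spans 0.410 to 812 CPM and LHCB4.2 spans 226 to 11737 CPM. L replicate 3 lies below the other L libraries except for LHCB4.3.

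After 6 h of light 9 of the 10 genes were higher than in D and 0 were lower, against 21.4% and 5.05% of all genes. LHCB4.3 had 48.1, 96.4, 30.3, 103 and 62.3 CPM in the 6h libraries, 24.8-fold above D (log2 4.63 ± 0.67, adjusted p = 2.72e-06). LHCA1 had 2540, 2480, 1222, 4887 and 3583 CPM in 6h, 22.7-fold above D (4.51 ± 0.60, adjusted p = 5.91e-07). For both genes no 6h library overlapped D. LHCA4 followed at 3.19 ± 0.53 and LHCA5 at 2.83 ± 0.53, and LHCB6, LHCA3 and LHCB5 lay between 2.22 and 2.48. LHCA2 (1.64 ± 0.49, adjusted p = 0.0121) and LHCB4.1 (1.61 ± 0.49, adjusted p = 0.0133) rose least among the genes called.

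LHCB4.2 was the exception. It had 1064, 1217, 553, 1732 and 1442 CPM in 6h, against 226, 417, 944, 659 and 732 CPM in D. Both groups overlapped through 6h replicate 3, and the log2 fold change of 1.012 ± 0.47 had an adjusted p of 0.106 (0.0473 with DESeq2 on the Drosophila size factors). The median of the members was 2.36, and that of all genes 0.56. Within replicates 1 and 2 the 9 genes were called again, and within replicates 3 to 5 it was 7, without LHCB4.1 (1.34, adjusted p = 0.0754) and LHCA2 (1.32, adjusted p = 0.087). Of all genes these sets called 8419 of 21151 and 1752 of 20525 higher. LHCB4.3 was at 6.42 in replicates 1 and 2 and at 4.01 in replicates 3 to 5, where the medians of all genes were 1.56 and 0.14. LHCB4.1 also missed the threshold when the 6h and D libraries were fitted alone (adjusted p = 0.0519).

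Set against 1h, 6h libraries were higher for the same 9 genes and lower for 0, where 13.6% and 3.12% of all genes were called. The changes lay close together, from 1.43 ± 0.48 (LHCB4.1) to 2.34 ± 0.54 (LHCA1), with LHCB4.2 at 0.79 ± 0.47 (adjusted p = 0.246). LHCA4, LHCA5, LHCA3 and LHCB6 lay between 1.97 and 2.00. For all 10 genes the groups overlapped, and the share of all genes that overlapped is not given here. Replicates 3 to 5 alone also gave 9 and replicates 1 and 2 gave 0. Of all genes these sets called 2327 of 20525 and 639 of 21151 higher. Only 5 members passed without 1h replicate 1 or without 1h replicate 5, where 1339 and 1512 of all genes were higher. The LHCB4.1, LHCB4.3, LHCB5 and LHCA2 calls were each lost without at least 3 of the 10 libraries, 1h replicates 1 and 5 among them; the others were 1h replicate 3 and 6h replicates 2, 4 and 5.

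At 24 h of light all 10 genes were higher than in D and 0 lower, where 50.3% of all genes were higher and 3.76% lower. For none of the 10 did the groups overlap. The share of all genes without overlap is not given here. LHCB4.3 had 186, 344, 255, 637 and 426 CPM in 24h, 135-fold above D (7.07 ± 0.75, adjusted p = 3.02e-09). LHCA1 had 4713, 6895, 6137, 10919 and 4241 CPM, 50.9-fold above D (5.67 ± 0.63, adjusted p = 7.58e-09). LHCA5 (4.203 ± 0.56) and LHCA4 (4.07 ± 0.55) came next. LHCB6, LHCB5, LHCA3, LHCA2 and LHCB4.1 lay between 3.08 and 3.68, which are 8.46-fold to 12.8-fold.

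LHCB4.2 again changed least. It averaged 2557 ± 1070 CPM in 24h and 596 ± 280 CPM in D (SD, n = 5 each), a log2 fold change of 2.102 ± 0.48 (4.29-fold, adjusted p = 0.000604). All 10 calls were also made within each replicate set and under TMM scaling. LHCB4.3 was at 8.29 in replicates 1 and 2 and 6.77 in replicates 3 to 5, and LHCA1 at 6.41 and 5.38. The medians of all genes in these sets were 2.04 and 0.88. Under TMM the log2 changes ran from 0.77 ± 0.23 (LHCB4.2) to 5.95 ± 0.39 (LHCB4.3), around a median over all genes of -0.06. Over all genes TMM called 5410 higher and 5950 lower, where the Drosophila scaling called 10377 higher and 775 lower.

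From 6h to 24h LHCB4.3 alone passed the test, with a log2 fold change of 2.44 ± 0.60 (24h over 6h, 5.43-fold, adjusted p = 0.0101) and no overlap of the groups. This is 1 of 10 higher and 0 lower, against 6.82% and 0.412% of all genes. The other 9 lay between 0.88 (LHCA4) and 1.48 (LHCA2), with adjusted p-values of 0.0544 to 0.235. Libraries of the same replicate number deviated together in these groups, and with the number as a block 6 members passed: LHCB4.1 (1.502, adjusted p = 0.00918), LHCB4.3 (2.46), LHCA2 (1.44), LHCA5 (1.33), LHCB5 (1.27) and LHCB6 (1.16, adjusted p = 0.0499). The block called 3849 of 20615 genes higher, where the main fit called 1405. Without 24h replicate 1 or without 6h replicate 4 the count of members was 3, where 1945 and 1504 of all genes were higher. Within replicates 1 and 2 no member passed, LHCB4.3 included (1.87, adjusted p = 0.351), and within replicates 3 to 5 it was LHCB4.3 (2.75, adjusted p = 0.00588). Of all genes these sets called 254 of 21151 and 1222 of 20525 higher.

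In long-day cotyledons all 10 genes were higher than in D and 0 lower, in a comparison where 84.9% of all genes were higher and 1.96% lower. The share called therefore says little about these genes, and their sizes are given instead. LHCB4.3 had 605, 812, 262, 563 and 183 CPM in L, 177-fold above D (7.46 ± 0.76, adjusted p = 4.31e-10). LHCA1 had 21231, 20683, 7587, 25232 and 28914 CPM, 160-fold above D (7.32 ± 0.68, adjusted p = 6e-11). The other 8 lay between 3.93 ± 0.52 (LHCB4.2, 15.3-fold) and 5.64 ± 0.59 (LHCA4, 49.8-fold). Within replicates 1 and 2 the changes were larger than within replicates 3 to 5 for all 10 genes, and all passed in both. The median of all genes tested was also larger there, at 3.73 against 1.64, so the difference is not particular to the members. LHCB4.3 was at 9.71 and 6.38, LHCA1 at 8.26 and 6.92, and LHCA5 at 6.93 and 4.28, and the other 7 lay between 4.93 and 6.53 and between 3.47 and 5.25. The members' median was 5.03 and that of all genes 2.35. With TMM the members' median was 2.64 against -0.08, and 5550 of all genes were called higher and 6274 lower, where the Drosophila scaling called 17495 higher and 404 lower.

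Markers of other cells differed from D in L, and some already at 6 h and 24 h. The 8 root markers summed to 5.99 to 29.5 CPM in L and to 0.0559 to 0.533 CPM in D. Of the 8, 6 had counts in D and in 1h, 5 in 6h, 8 in 24h and 7 in L. The root markers summed to 0.0876 to 1.24 CPM in 1h, 0.131 to 1.60 CPM in 6h and 0.309 to 1.44 CPM in 24h. WOX5, which marks the root's quiescent centre, had 0 counts in D, 1h, 6h and L. The root hair gene COBL9 had 0 in D and 6h, and the root iron transporter gene IRT1 had 0 in 1h and 6h. The 3 guard-cell lineage genes FAMA, SPCH and MUTE summed to 1.93 to 11.7 CPM in D, 12.9 to 37.3 CPM in 6h, 25.8 to 70.0 CPM in 24h and 47.2 to 103 CPM in L. Of these 3 genes, 2 were called higher at 6 h and 3 at 24 h, where 21.4% and 50.3% of all genes were. With TMM 3 were called higher at both times, where 5472 and 5410 of 20615 genes were. The 5 shoot meristem genes summed to 28.0 to 53.4 CPM in L and 8.34 to 33.5 CPM in D, with CLV3 at 0 in L. Most of this sum was CLV1, which averaged 39.7 CPM in L and 14.7 CPM in D. Of the 4 meristem genes tested, 1 was called higher in L than in D and 2 lower. With TMM all 4 were called lower, so the larger sum does not stand for these genes as a set. The vascular genes SUC2 and APL summed to 14.1 to 42.2 CPM in D, 19.4 to 68.8 CPM in 6h, 47.9 to 101 CPM in 24h and 84.5 to 332 CPM in L. Both were called higher at 24 h, as were 50.3% of all genes. Their median log2 change at 24 h was 1.45, near the 1.19 of all genes, and TMM called 1 of the 2 higher. The 3 epidermal genes summed to 73.1 to 356 CPM in D, 355 to 1154 CPM in 6h, 272 to 747 CPM in 24h and 421 to 1366 CPM in L. In L the median log2 change was 2.83 for the vascular genes, 2.36 for the epidermal genes and 2.35 for all genes. With TMM, the 3 guard-cell genes and 3 root genes, the only 3 of the 8 tested, were called higher in L than in D. Of 20615 genes TMM called 5550 higher there. Of the vascular and epidermal genes 0 were higher and 1, epidermal, was lower. The part of these markers in the antenna values was not tested.

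Against 24h, L was higher for 8 of the 10 genes and lower for 0, where 52.5% and 0.514% of all genes were called. LHCB4.2 changed most here, with 9487, 10173, 4255, 9848 and 11737 CPM in L, against 1711, 2714, 2219, 4335 and 1805 CPM in 24h. All but L replicate 3 lay above every 24h library, and the log2 fold change was 1.83 ± 0.48 (3.56-fold, adjusted p = 0.0069). LHCB4.3 (0.39 ± 0.57, adjusted p = 0.534) and LHCA5 (0.95 ± 0.50, adjusted p = 0.0938) did not pass. The members' median of 1.39 was near that of all genes, 1.18. For all 10 genes L replicate 3 lay inside the range of 24h.

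Between L and 24h LHCB4.2 was the only member that passed in each of the 10 fits with 1 library left out. Calls over all genes were fragile as well. In the main fit 10826 of 20615 genes were higher. Without 24h replicate 1 it was 3425 of 20878, and LHCB4.2 alone passed among the members. Without L replicate 2, 24h replicate 3 or 24h replicate 5 the count of members was 4, and without L replicate 4 it was 5. In these fits 3724, 4860, 7327 and 7749 of all genes were higher. LHCA1, LHCA3 and LHCA4 lost their calls only without 24h replicate 1 (adjusted p = 0.0501 to 0.0595). The LHCB4.1 call was lost without 8 of the 10 libraries, LHCB5 without 6, LHCA2 without 5 and LHCB6 without 4. Replicates 1 and 2 alone gave 3 members (LHCB4.2, LHCA1 and LHCA3) and replicates 3 to 5 gave 0. Of all genes these sets called 9453 of 21151 and 315 of 20525 higher. Under TMM the count of members was 0, with LHCB4.2 highest at 0.68 (adjusted p = 0.0612), and LHCB4.3 (-0.79, adjusted p = 0.112) and LHCA5 (-0.23) changed sign. TMM called 1069 of 20615 genes higher.

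**Figure D3:**
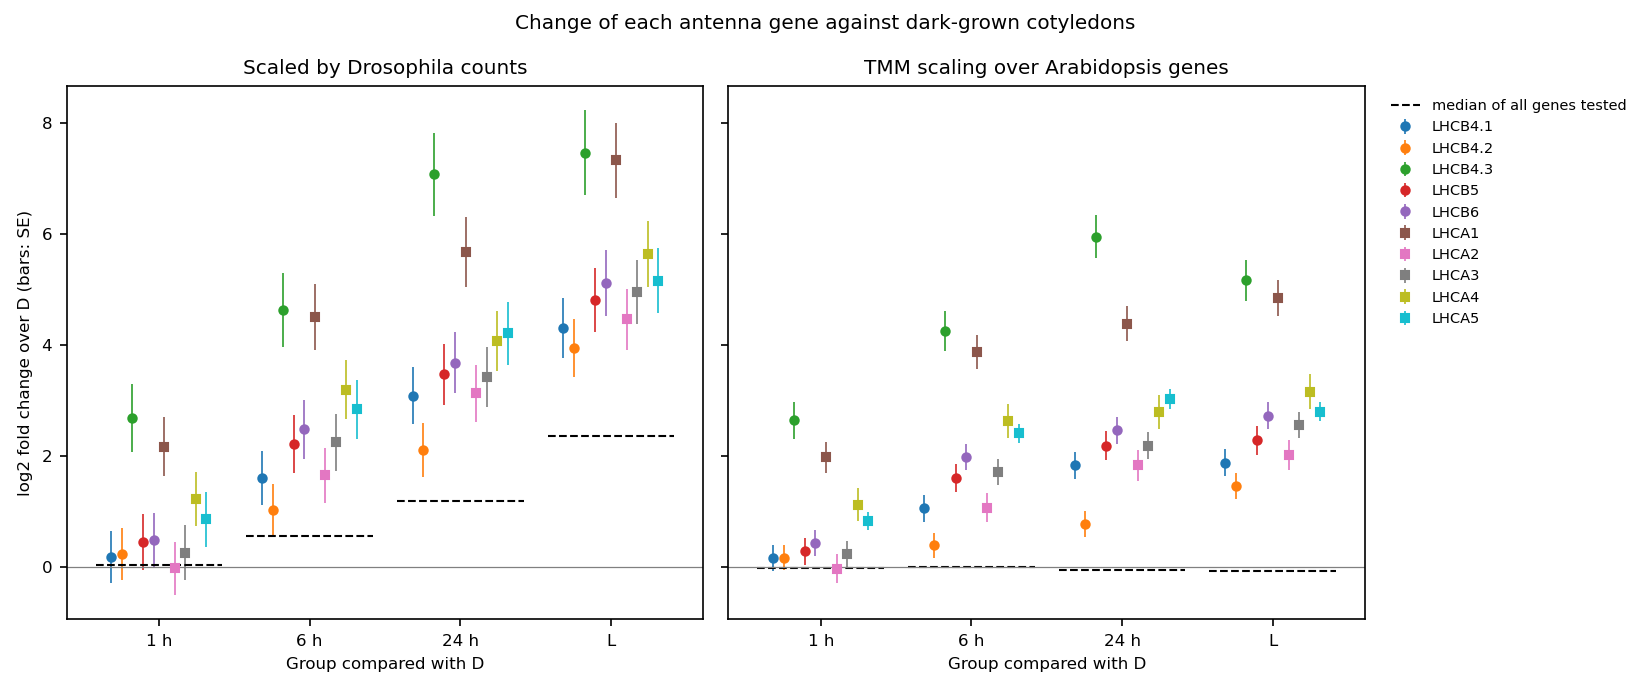
Log2 fold change over D of each gene (y axis, bars are SE) in 1 h, 6 h, 24 h and L, with scaling by Drosophila counts on the left and TMM over Arabidopsis genes on the right. Dashed lines are the medians of all genes tested, which reach 2.35 in L on the left and stay between -0.08 and -0.01 on the right. LHCB4.3 and LHCA1 stand above the other 8 genes in every group under both scalings, and LHCB4.2 is lowest at 6 h, 24 h and L.

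Ratios between members of the same library do not depend on how libraries are scaled. For 6 pairs chosen by their roles the log2 ratio was compared between each light-grown group and D with an exact permutation test, two-sided, that enumerated all 252 assignments of 5 against 5 libraries. The smallest p this design can give is 0.00794, and p-values were adjusted over the 24 tests. The pairs were chosen with earlier results of these data known, so the p-values are not those of pairs fixed in advance.

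Among the CP29 isoforms the balance moved away from LHCB4.2. The ratio of LHCB4.2 to LHCB4.1 counts was 0.392, 0.397, 0.337, 0.408 and 0.340 in 24h, against 0.790, 0.867, 0.878, 0.628 and 0.668 in D. No 24h value reached the lowest D value, and the difference on the log2 scale was -1.02 ± 0.11 (exact permutation adjusted p = 0.0159). At 6 h it was -0.61 ± 0.15 (adjusted p = 0.0293), with 1 library, 6h replicate 1, inside the range of D. At 1 h it was 0.04 ± 0.11 (adjusted p = 0.706), and in L it was -0.35 ± 0.14 (adjusted p = 0.101). LHCB4.3 moved the other way: its ratio to LHCB4.1 was higher than in D by 2.53 ± 0.42 after 1 h, by 3.28 ± 0.37 after 6 h, by 4.22 ± 0.38 after 24 h and by 3.37 ± 0.57 in L. Each had an exact permutation adjusted p of 0.0159 with no overlap. At 24 h the LHCB4.2 difference was -1.07 within replicates 1 and 2 and -0.99 within replicates 3 to 5, and the LHCB4.3 one was 4.55 and 4.01. The sets differed more for LHCB4.3 at 6 h, with 4.13 in replicates 1 and 2 and 2.72 in replicates 3 to 5, and in L, with 4.598 and 2.55.

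Per exon length LHCB4.3 remained a small part of the CP29 transcripts. It made up 0.171% ± 0.0937 of them in D, 0.925% ± 0.393 in 1h, 1.75% ± 0.454 in 6h, 3.65% ± 1.11 in 24h and 1.97% ± 0.927 in L (SD, n = 5 each). In L the share was 2.39%, 2.98%, 2.25%, 1.72% and 0.522% in replicates 1 to 5, so that replicate 5 lay lowest. LHCB4.2 made up 43.6% ± 3.76 in D, 44.0% ± 2.36 in 1h, 33.1% ± 3.81 in 6h, 26.6% ± 1.84 in 24h and 37.1% ± 3.41 in L. LHCB4.1 held the rest, and was the most abundant isoform in every library.

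The photosystem I partners LHCA1 and LHCA4 came closer together. The ratio of LHCA4 to LHCA1 counts was 1.17, 1.23, 1.18, 1.12 and 1.27 in L, against 4.56, 3.76, 3.79, 4.202 and 3.59 in D. The log2 difference from D was -0.87 ± 0.16 in 1h, -1.35 ± 0.26 in 6h, -1.63 ± 0.08 in 24h and -1.74 ± 0.07 in L. No group overlapped D (exact permutation adjusted p = 0.0159 for each). The geometric mean of the ratio was 3.97 in D, 2.17 in 1h, 1.56 in 6h, 1.28 in 24h and 1.19 in L. The spread between libraries was widest at 6 h, from 1.052 in replicate 4 to 2.78 in replicate 1. The difference of L from D was -1.79 within replicates 1 and 2 and -1.70 within replicates 3 to 5. At 6 h the sets were further apart, at -0.88 and -1.66.

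The LHCA2 and LHCA3 partners shifted less. The ratio of LHCA3 to LHCA2 was 1.25, 0.949, 0.873, 0.918 and 1.08 in 6h, against 0.580, 0.576, 0.644, 0.699 and 0.736 in D. It was higher than in D by 0.64 ± 0.12 in 6h, 0.37 ± 0.10 in 24h and 0.52 ± 0.09 in L on the log2 scale, without overlap (exact permutation adjusted p = 0.0159 each). At 1 h the difference of 0.34 ± 0.14 had an adjusted p of 0.0762. LHCA2 shares 119 of its 1359 windows of 50 bases (8.76%) with AT5G28450, which held at most 48 counts per library, and the other 9 members share none with another annotated gene.

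For LHCB6 over LHCB5 the difference from D was 0.16 ± 0.23 after 1 h, 0.38 ± 0.16 after 6 h, 0.29 ± 0.16 after 24 h and 0.42 ± 0.16 in L, and none passed (exact permutation adjusted p = 0.0762 to 0.613). By replicate number, LHCB6 over LHCB5 was higher in 5 of 5 pairs at 6 h, and in 5 of 5 at 24 h, where the pairs differed by 0.18 to 0.36 on the log2 scale. With 5 pairs a two-sided sign-flip test cannot go below 0.0625 before adjustment. LHCA5 over LHCA4 lay between -0.32 ± 0.31 (1 h) and 0.23 ± 0.33 (24 h), with adjusted p of 0.441 to 0.613. Errors of this size do not show that these pairs kept a constant ratio.

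**Figure D4:**
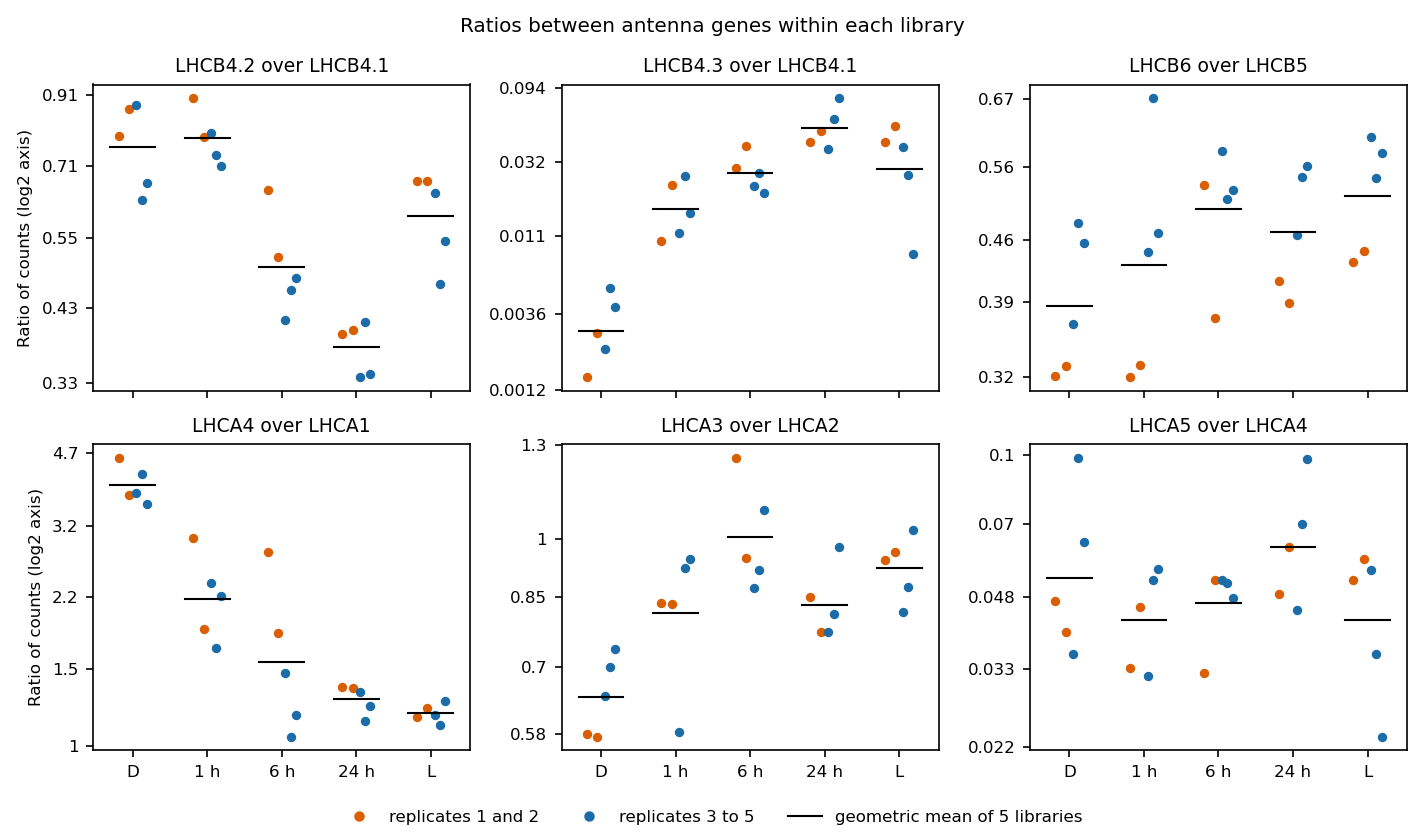
Ratio of the counts of 2 antenna genes within each library (y axis, log2 scale) in D, 1 h, 6 h, 24 h and L. Points are libraries, coloured by replicate set, and bars are geometric means. The geometric mean of LHCA4 over LHCA1 is lower in each group than in the one before it, down to 1.19 in L, and LHCB4.2 over LHCB4.1 is lowest at 24 h, where it is 0.374.

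Counts per kilobase of exon allow the 10 genes to be set beside each other. In D the order was LHCB5 (19.4% ± 2.14 of the 10 genes' counts per kb, SD, n = 5), LHCB4.1 (18.1% ± 1.92), LHCA2 (15.1% ± 1.02), LHCB4.2 (14.1% ± 1.76), LHCA4 (12.2% ± 1.1), LHCB6 (8.71% ± 1.74), LHCA3 (8.47% ± 0.886), LHCA1 (3.14% ± 0.498), LHCA5 (0.811% ± 0.280) and LHCB4.3 (0.0543% ± 0.0298). LHCB5 exceeded LHCB4.1, and LHCB6 exceeded LHCA3, in only 3 of 5 D libraries, so these neighbours were not separated. LHCA3, LHCA1, LHCA5 and LHCB4.3 followed each other in that order in 5 of 5.

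In L the order was LHCA4 (18.7% ± 1.57), LHCB5 (16.9% ± 2.57), LHCA1 (16.0% ± 0.888), LHCB4.1 (11.2% ± 1.16), LHCA2 (10.7% ± 1.046), LHCB6 (9.98% ± 0.432), LHCA3 (8.52% ± 0.373), LHCB4.2 (6.78% ± 0.703), LHCA5 (0.997% ± 0.295) and LHCB4.3 (0.360% ± 0.165). LHCA4 exceeded LHCB5, LHCB5 exceeded LHCA1 and LHCB4.1 exceeded LHCA2 in 3 of 5 libraries each. LHCA1 thus stood at rank 8 in D, rank 6 at 1 h and rank 3 in 6h, 24h and L. LHCB4.2 stood at rank 4 in D and at 1 h, and at rank 8 in the other groups, where its share was 5.53% ± 0.542 at 6 h and 5.05% ± 0.210 at 24 h.

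**Figure D5:**
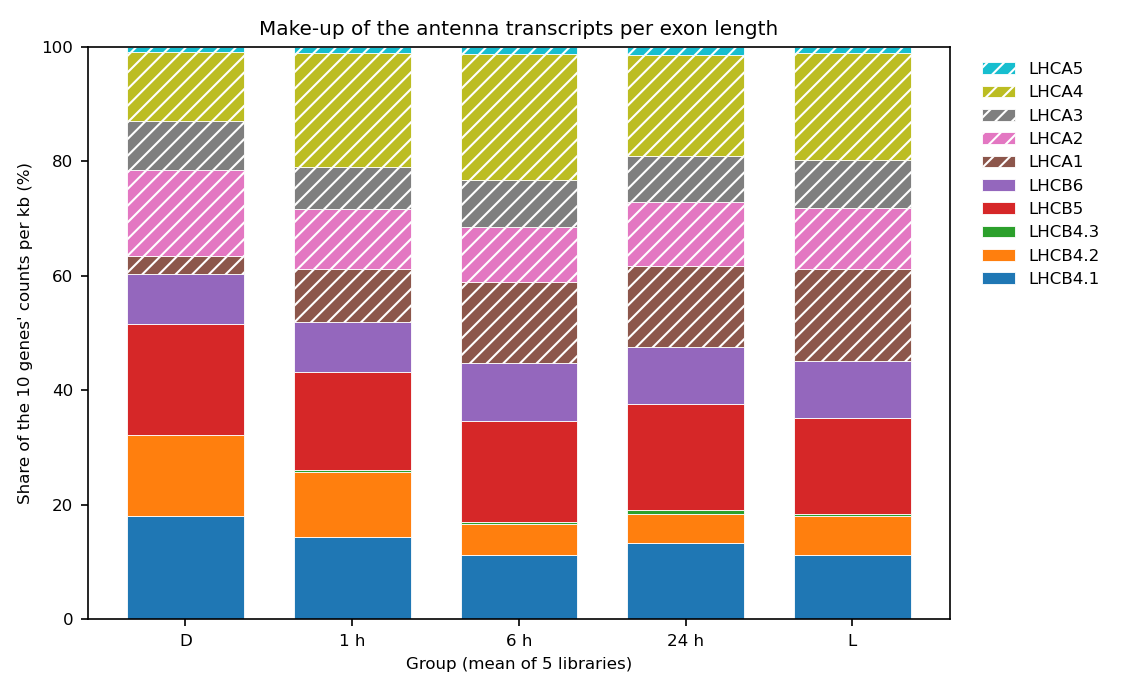
Mean share of each gene in the summed counts per kb of the 10 genes (y axis, percent) in D, 1 h, 6 h, 24 h and L. Hatched segments are photosystem I antenna genes. The LHCA1 segment is 3.14% in D and 16.0% in L, and that of LHCB4.2 is 14.1% in D and 6.78% in L.

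Together the 10 genes made up 0.938% ± 0.204 of nuclear-encoded counts in D, 1.29% ± 0.195 in 1h, 2.53% ± 0.108 in 6h, 3.26% ± 0.498 in 24h and 3.67% ± 1.02 in L (SD, n = 5 each). The 5 minor photosystem II antenna genes held 0.556% ± 0.110 in D and 1.63% ± 0.370 in L. The 5 photosystem I antenna genes held 0.381% ± 0.0955 in D and 2.03% ± 0.651 in L, so that the larger of the sums was the photosystem II one in D and the photosystem I one in L. The 9 major antenna genes LHCB1, LHCB2 and LHCB3 held 1.70% ± 0.786 in D and 5.59% ± 2.36 in L.

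Profiles of the members over the 25 libraries were compared as log2 TMM-scaled CPM, as a description, since libraries of a group share their condition. The lowest correlation between members was that of LHCB4.2 with LHCB4.3 (Pearson r = 0.628), and the highest were LHCB6 with LHCA3 (0.988) and LHCB4.1 with LHCA2 (0.984). LHCB4.3 was closest to LHCA5 (0.965). Among 9833 other genes with at least 10 CPM on average, those most like the mean of the members were PSAL (0.988), PSAN (0.985), FBA5 (0.983), AT3G47070 and PSAO (0.980 each), LHCB3 (0.979), RCA and AT5G05200 (0.978 each), and HCF244 and PSBW (0.977 each). PSAL, PSAN and PSAO are subunits of photosystem I, PSBW is one of photosystem II and RCA is Rubisco activase.

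For single members, LHCA1 was most like LHCB3 (0.996), a gene of the major antenna. LHCB5 was most like PSAL (0.985), LHCB6 most like PSBW (0.988), and LHCB4.1 most like PSBO1 (0.977), which encodes a protein of the oxygen-evolving complex. PSBP-1, for another such protein, was closest to LHCA2 (0.975) and LHCA3 (0.988). LHCA4 was closest to PSB27 (0.978), LHCA5 to AT5G07020 (0.989) and LHCB4.3 to AT4G17098 (0.971). LHCB4.2 had the weakest match, the aquaporin gene PIP1;5 (0.903).

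Other genes of the photosynthetic membrane were counted in lists for context. Of the 9 major antenna genes, 3 were higher than in D after 1 h, 8 after 6 h and all 9 in both 24h and L, and none was lower by edgeR's test. Of all genes 3.06%, 21.4%, 50.3% and 84.9% were higher at these times, so the count in L is near the background. TMM called 5 of the 9 at 1 h and 8 each at 6 h, 24 h and in L. Of 20615 genes TMM called 1711, 5472, 5410 and 5550 higher at these times. It did not call LHCB1.3 at 24 h (0.75, adjusted p = 0.111) or in L (0.61, adjusted p = 0.19). The median log2 change of the 9 major antenna genes at 24 h was 5.21, against 3.57 for the members. LHCB2.2 averaged 3044 ± 1521 CPM at 24 h and 34.9 ± 28.0 CPM in D (6.45 ± 0.71). LHCB1.1 (9.83 ± 0.92) and LHCB1.4 (6.47 ± 0.98) moved further, but close copies in the LHCB1 group may share reads, so their levels are uncertain. Shared sequence was counted for the 10 members only, so that of LHCB2.2 is not known either. Of the rare antenna genes, LHCB7 rose in the first hour (2.97 ± 0.53), and LHCA6, which like LHCA5 links photosystem I to NDH, was at 0.04 ± 0.51 then and at 3.16 ± 0.56 at 24 h.

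Of 12 nuclear photosystem I core genes, 0 were higher than in D at 1 h, 10 at 6 h and 12 at 24 h, led by PSAN (4.33 ± 0.56), PSAH2 (4.06 ± 0.65) and PSAK (4.04 ± 0.62). Of 11 nuclear photosystem II genes, 0 were higher at 1 h and 11 at 6 h and 24 h, led by PSBO2 (4.96 ± 0.65), PSBTN (3.88 ± 0.66) and PSBY (3.75 ± 0.58). Of 17 nuclear genes of the NDH complex, which LHCA5 and LHCA6 join to photosystem I, 1 was higher at 1 h, 14 at 6 h and 16 at 24 h. NDHT (4.61 ± 0.59), PNSB1 (4.56 ± 0.62) and PNSL3 (4.39 ± 0.65) changed most at 24 h. With the Drosophila scaling none of these 40 genes was called lower in those comparisons by edgeR's test. No photosystem core gene had an unadjusted p under 0.05 at 1 h, where DESeq2 with median-ratio factors called 3 of each photosystem higher and TMM called 1 of photosystem I and 3 of photosystem II. Of 20615 genes, that DESeq2 fit called 1997 higher and TMM 1711. For the NDH list at 1 h the 1 call was NDHT (1.89 ± 0.53, adjusted p = 0.0309). It was lost without D replicate 1, 2 or 3 or 1h replicate 2 or 4, and TMM called 5. NDHO, at -0.40 ± 0.47 at 6 h and 0.77 ± 0.47 at 24 h, was called lower under TMM at both times (-0.91, adjusted p = 0.00033, and -0.53, adjusted p = 0.02), and was chosen after its values were seen.

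The 6 genes that supply chlorophyll b or insert antenna proteins were called in 1 case at 1 h. CAO, which makes chlorophyll b, rose at 1 h (2.03 ± 0.51, adjusted p = 0.0141), a call lost without 1h replicate 2, 1h replicate 4 or D replicate 2. At 24 h all 6 were higher than in D, where 50.3% of all genes were: CAO (3.53 ± 0.55), CPSRP43 (2.66 ± 0.52), LTD (2.28 ± 0.55), CPFTSY (2.101 ± 0.49), CPSRP54 (1.5 ± 0.49) and ALB3 (1.32 ± 0.47). CPSRP43, CPSRP54 and CPFTSY form the signal recognition route to the thylakoid, LTD hands antenna proteins to it and ALB3 inserts them. The ALB3 call was lost without D replicate 2 (1.18) or 24h replicate 4 (1.12). TMM called 4 of the 6, without ALB3 (0.084, adjusted p = 0.691) and CPSRP54 (0.28, adjusted p = 0.145). Their median of 2.19 at 24 h lies below that of the members, 3.57, and above that of all genes, 1.19.

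STN7, the kinase that phosphorylates the major antenna, was 3.89 ± 0.55 above D at 24 h, and STN8, the kinase of the photosystem II core, was 1.52 ± 0.50 above it. TAP38, the phosphatase opposing STN7, was at 1.23 ± 0.46 (adjusted p = 0.0241). Its call was lost without D replicate 1 (1.06), D replicate 2 (1.19), 24h replicate 2 (1.15) or 24h replicate 4 (1.03), and its sign turned under TMM (-0.18). The STN8 call was lost under TMM (0.35, adjusted p = 0.0746), which left STN7 (2.71).

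Of 4 regulators of antenna genes, 3 were called at 1 h. GLK2 (3.13 ± 0.53), HYH (2.73 ± 0.57) and HY5 (1.96 ± 0.51) were higher than in D at 1 h, and GLK1 was at 0.09 ± 0.55. HY5 was lower at 6 h than at 1 h (-1.70 ± 0.50, adjusted p = 0.018). At 24 h HYH (3.76 ± 0.60), GLK2 (2.44 ± 0.51) and GLK1 (1.39 ± 0.56, adjusted p = 0.0355) were above D, and HY5 was at -0.15 ± 0.49 (adjusted p = 0.8). Relative to other Arabidopsis transcripts HY5 was lower at 24 h (TMM -1.53, adjusted p = 0.00234), and the GLK1 call was lost (0.30, adjusted p = 0.534). The GLK1 call at 24 h was lost without D replicate 1 (1.18), 2 (1.19) or 3 (1.44) or 24h replicate 2 (1.29), 3 (1.38) or 4 (1.42). In L 3 of the 4 were called higher than in D, where 84.9% of all genes were. GLK1 stood at 5.07 ± 0.65 and GLK2 at 4.74 ± 0.57 in L, and the median of all genes was 2.35. With TMM HY5 was lower in L (-2.04, adjusted p = 0.000158), and GLK1 (2.65), GLK2 (2.39) and HYH (2.25) were higher.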

How the data were processed

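RNA of dissected cotyledons was measured in 25 libraries, 5 in each of 5 groups. The deposited values are counts per gene, with Arabidopsis and Drosophila genes in 1 table. Per the submitters' processing notes, Salmon 1.9.0, HTSeq, R 4.3.2 and the build TAIR10 were used, without a step for each. Should the deposited counts stem from Salmon, they would be rounded estimates. Annotation and filters: not given in the sources used here.

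Library sizes were set in proportion to the summed counts of 13771 Drosophila genes. This assumes that equal fly cells were added to equal tissue, which the sources used here do not state. The 1539 entries with no identifier of either species (0.119% to 0.741% of counts) were left out. Genes passing edgeR 4.0.16 filterByExpr (minimum count 10, total 15) were fitted over all 25 libraries with glmQLFit and tested with glmQLFTest in R 4.3.3, with Benjamini-Hochberg adjustment over 20615 genes and a threshold of 0.05. The code was tested on simulated data. SE is the log2 fold change divided by the root of F. Ratios used counts with 0.5 added. Levels per kb used exon lengths of TAIR10.1.

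Alternatives were TMM over Arabidopsis or Drosophila genes, DESeq2 1.42.0 (size factors from Drosophila counts or median ratios), no filter, the compared groups alone, a replicate block, each replicate set alone and leaving out each library. Replicate numbers come from the labels. Deviations of same-numbered libraries correlated above 0.1 in every pair for 1h, 6h and 24h against D, 6h against 1h and 24h against 6h (0.217 to 0.688). The numbers were taken to pair these libraries in the block and sign-flip alternatives. Libraries of different number were not compared, so the correlations cannot show that the numbers pair libraries. The main fit and the permutation tests did not use the pairing. For L not every pair lay above 0.1 (lowest 0.052 against D and 0.034 against 24h).

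The members, lists and tests were chosen with earlier results of these data known. All members are named, and from each list up to 3 called genes that changed most at 24 h against D, or all where the list has at most 6. Other list values at 1 h, 6 h and L were picked after they were seen. Symbols and coordinates come from RefSeq. Protein sequences were not used here.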

Additional observations from a re-analysis of the deposited data

Results flagged for a closer look

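In 80 groups of 5 libraries (10 levels and 6 ratios in 5 groups), a library was marked when its gap to the nearest other exceeded 0.71 of the group's range (Dixon's test at 95%). This marked 5, and chance marks about 1 in 20 groups. LHCB5 had 2742 CPM in 1h replicate 2, where the other 1h libraries had 581 to 1001 CPM. That library was the highest of 1h for all 10 genes and held the smallest share of Drosophila counts in 1h (1.015%). With TMM scaling LHCB5 had 2483 CPM in 1h replicate 2 and 2321 CPM in 1h replicate 3. LHCB5 had 8211 CPM in L replicate 3, against 25892 to 29586 CPM in the other L libraries. The log2 ratio of LHCB6 to LHCB5 was -1.42 in 6h replicate 2, a ratio of 0.374 beside 0.514 to 0.585 in the others. The log2 ratio of LHCA3 to LHCA2 was -0.78 in 1h replicate 3, a ratio of 0.584 beside 0.834 to 0.946. The log2 ratio of LHCA5 to LHCA4 was -4.95 in 6h replicate 1, a ratio of 0.0323 beside 0.0477 to 0.0524.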

How the results depend on the processing

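The counts of members higher than in D at 6 h, 24 h and L stayed within 1.5 times of those reported under every alternative, and no member was called lower in these comparisons. At 1 h, 2 members were reported: TMM over Arabidopsis genes gave 4, DESeq2 with median-ratio factors 4, replicates 1 and 2 alone 4, replicates 3 to 5 alone 0, and leaving out 1 library 1 to 2. Of all genes, 630 were higher as reported, 1711 with TMM and 1997 with median-ratio factors. Replicates 1 and 2 gave 1758 and replicates 3 to 5 gave 251. For 6h against 1h (9) the count of members was 0 in replicates 1 and 2 and 5 to 9 with 1 library left out. Of all genes, 2812 were higher as reported and 639 in replicates 1 and 2. For 24h against 6h (1) TMM gave 3, the replicate block 6, the compared groups alone 5, DESeq2 with Drosophila factors 5 and with median-ratio factors 4, replicates 1 and 2 gave 0, and leaving out 1 library gave 1 to 3. Of all genes, 1405 were higher as reported, 1886 with TMM, 3849 with the block and 3627 with the compared groups alone. DESeq2 called 2532 with Drosophila factors and 2307 with median-ratio factors, and replicates 1 and 2 gave 254. For L against 24h (8) TMM gave 0, Drosophila TMM 4, DESeq2 with median-ratio factors 1, replicates 1 and 2 gave 3, replicates 3 to 5 gave 0, and leaving out 1 library gave 1 to 8. Of all genes, 10826 were higher as reported, 1069 with TMM, 5073 with Drosophila TMM and 1659 with median-ratio factors. In replicates 1 and 2 it was 9453, and in replicates 3 to 5 it was 315. The replicate block moved no other count of members by over 1.5 times, but LHCA5 passed for L against 24h with it (1.02, adjusted p = 0.0358). The sign-flip test with pairs cannot go below 0.0625 for the ratios. Signs turned at 1 h against D for LHCA2 (0.021 with Drosophila TMM, 1.19 in replicates 1 and 2, -0.38 to 0.18 with 1 library left out). In replicates 3 to 5 they turned for LHCB4.1 (-0.38), LHCB4.2 (-0.33), LHCB5 (-0.43), LHCB6 (-0.11) and LHCA3 (-0.40). The median of all genes was -0.58 in that set at 1 h. With 1 library left out the ranges were -0.15 to 0.36 for LHCB4.1, -0.10 to 0.46 for LHCB4.2, -0.17 to 0.62 for LHCB5 and -0.11 to 0.44 for LHCA3. For L against 24h they turned for LHCB4.3 (TMM -0.79, replicates 3 to 5 -0.39, DESeq2 with median-ratio factors -0.75) and LHCA5 (TMM -0.23, DESeq2 -0.19). At 24 h against D, TAP38 turned with TMM (-0.18) and DESeq2 median-ratio factors (-0.15), and HY5 in replicates 1 and 2 (0.53). Among log2 ratios against D, LHCA5 over LHCA4 in L was 0.35 in replicates 1 and 2. With 1 library left out, LHCB4.2 over LHCB4.1 at 1 h ran from -0.024 to 0.10, LHCB6 over LHCB5 at 1 h from -0.001 to 0.27, and LHCA5 over LHCA4 at 6 h from -0.33 to 0.036. The cause was not tested. All ratios called with 5 libraries a group kept their sign. LHCB4.3 in D, with 44 to 155 counts, is the value that depth limits most.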

Other observations

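A merged entry that joins LHCA4 (AT3G47470) with its neighbour AT3G47480 held 3 to 13 counts per library in all groups, and was not added to LHCA4.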
